A study of Mus musculus with 22 samples.

Results

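The 10 genes described here are the protein kinases Rock1 and Rock2, the transcription factor gene Srf, and 7 genes of the actin cytoskeleton, namely Actb, Actn1, Actn4, Vcl, Flna, Tpm1 and Myl9. They were taken by symbol and not by a threshold on their values, because conditional reprogramming as a method uses an inhibitor of ROCK. Earlier results of these data were known when they were chosen. All 10 were found among 23993 gene symbols of a table of cultures and allografts and among 23490 symbols of a table of primary cancers and their cultures. Values are FPKM (fragments scaled to the length of the transcript and to the size of the library), so that levels can be compared between genes.

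The study set cells grown by conditional reprogramming (CRC) beside cells grown in a mammary-optimised medium (EpiC) in 22 mouse mRNA libraries. All cells came from C57Bl/6 nulliparous females carrying 1 mutant Trp53 allele and MMTV-Cre, and ages were not given in the sources used here. The MMTV promoter drives expression in mammary epithelium and in some other tissues. The CYP19A1 genotype carried an aromatase transgene under a tetracycline operator with MMTV-rtTA, Brca1hom carried 2 conditional Brca1 alleles (Brca1fl11/fl11), and Brca1het carried 1 such allele (Brca1fl11/WT). The CRC cultures (n = 3) and the EpiC cultures (n = 3) comprised 1 library of each genotype, where number 1 was CYP19A1, number 2 Brca1het and number 3 Brca1hom. Allografts had been generated in mammary glands of nude hosts, NU (NCr)-Foxn1nu, which lack most T cells and keep macrophages. The 7 CRC allografts were 6C (CYP19A1), 10B, 10C and 11C (Brca1het), and 1, 2 and 12 (Brca1hom). Allografts 10B and 10C carry the same number in their titles, and no label says whether they came from 1 host. The 3 EpiC allografts were 7B (CYP19A1), 4C and 5A (Brca1het). A second set held 2 CRC cultures and 2 EpiC cultures of Brca1het cancers beside the 2 primary cancers they were grown from, and 1 mouse may have given both cancers, since their titles carry the same number. No label states that replicate libraries were taken from different mice or dishes, so each p-value rests on a spread between samples that may be technical. The labels also do not say whether the ROCK inhibitor was present when cells were collected.

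ROCK1 and ROCK2 phosphorylate myosin light chain, the myosin phosphatase subunit and the LIM kinases, and thereby raise actomyosin contraction and slow the severing of actin filaments by cofilin. Incorporation of free actin monomer into filaments releases the coactivators MRTF-A and MRTF-B, which enter the nucleus and act with SRF (serum response factor) on genes of actin, of its crosslinkers and of muscle contraction. In the mammary gland, contractile actomyosin is most abundant in the myoepithelial layer that ejects milk. ROCK inhibitors act on the kinase proteins, and an mRNA level is not a measure of kinase activity.

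SRF binds the CArG box. Promoter stretches of the 3 members in which a CArG box was found are printed to show where this motif lies, with the box in capitals. They are RefSeq sequences of build GRCm38.p6, 5′ to 3′ on the strand of the gene and upstream of its start, whereas the expression values were made on build mm9. The stretches are chr17:46556180-46556279 on the minus strand for Srf, chr14:20929148-20929247 on the plus strand for Vcl and chr2:156775268-156775367 on the plus strand for Myl9.
Srf: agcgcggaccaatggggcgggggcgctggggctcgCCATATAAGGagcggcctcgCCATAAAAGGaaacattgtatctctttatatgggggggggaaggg
Vcl: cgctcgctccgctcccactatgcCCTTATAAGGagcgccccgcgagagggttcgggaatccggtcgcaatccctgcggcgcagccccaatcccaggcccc
Myl9: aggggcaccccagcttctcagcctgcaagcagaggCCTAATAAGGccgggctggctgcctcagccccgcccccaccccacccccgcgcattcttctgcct
Srf held 2 CArG boxes, beginning 82 and 62 bases before its start, Vcl held 1 at 227 bases and Myl9 held 1 at 161 bases. Windows of 250 bases before to 50 bases after the start were searched on both strands, since the motif reads the same on either. Of the 8 members with a window, 3 held the motif, against 535 of 32851 windows overall (1.63%). The first box of Srf and the box of Vcl contain the letters TATAA, which occurred on either strand in 24.9% of all windows. No CArG box was found in the windows of Rock2, Actn1, Actn4, Flna and Tpm1, which says only that the letters are not in these windows. Rock1 and Actb were not among the windows used here. For the members, windows on 1 chromosome were left out, which was not done in the overall count.

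Luminal epithelial markers (10 genes) summed to 13.6 FPKM in EpiC culture 3 and to 1004 to 2446 FPKM in the other 5 cultures. To compare transcript lengths, the log2 level of each gene was first set relative to its own median over the libraries of its table. The median for genes with transcripts of at least 6 kb, minus that for genes under 2 kb, was −1.08 in EpiC allograft 5A. This difference ran from −0.24 to 0.56 in the other 15 libraries of the first table. It was highest in CRC allograft 1 (0.56), EpiC allograft 7B (0.50) and EpiC allograft 4C (0.41). The same difference was −1.84 in the CRC culture of cancer 2 and −0.16 to 0.34 in the other 5 libraries of the second table. The part of transcript length in any member's value was not tested. The longest annotated transcripts of Rock1 (6440 bases), Rock2 (7644) and Flna (8456) are above the 6 kb limit. Those of Actb (1920) and Myl9 (1128) are under the 2 kb limit. FPKM carries no read depth, and no intervals from counts are given. Summed over all genes, FPKM came to 825216 in EpiC allograft 5A and 466441 to 618933 in the other 15 libraries of the first table. The sum was 1615930 in the CRC culture of cancer 2 and 607519 to 710511 in the other 5 libraries of the second table. A given FPKM is thus a smaller share of the sum in both of these libraries than in others of the same table.

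Between the media, Actn1 and Actn4, the non-muscle alpha-actinins that bundle actin filaments and tie them to junctions and focal adhesions, stood at 3.80 and 3.11 times the EpiC level in CRC cultures. The kinases, Srf and the other actin genes were not called. Of the 10 members, 2 were called by limma (adjusted p under 0.05 over all genes tested), both higher, beside 23.2% of the 11837 genes tested. At an unadjusted p under 0.05 there were 4 members, which were these and Rock1 and Myl9. Libraries did not overlap between the media for 5 members, of which Rock1, Actn1, Actn4 and Vcl lay above and Myl9 below, a count to be read beside 50.4% of all genes. The median log2 difference was 0.29 over the members and 0.04 over all genes.

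**Figure D1:**
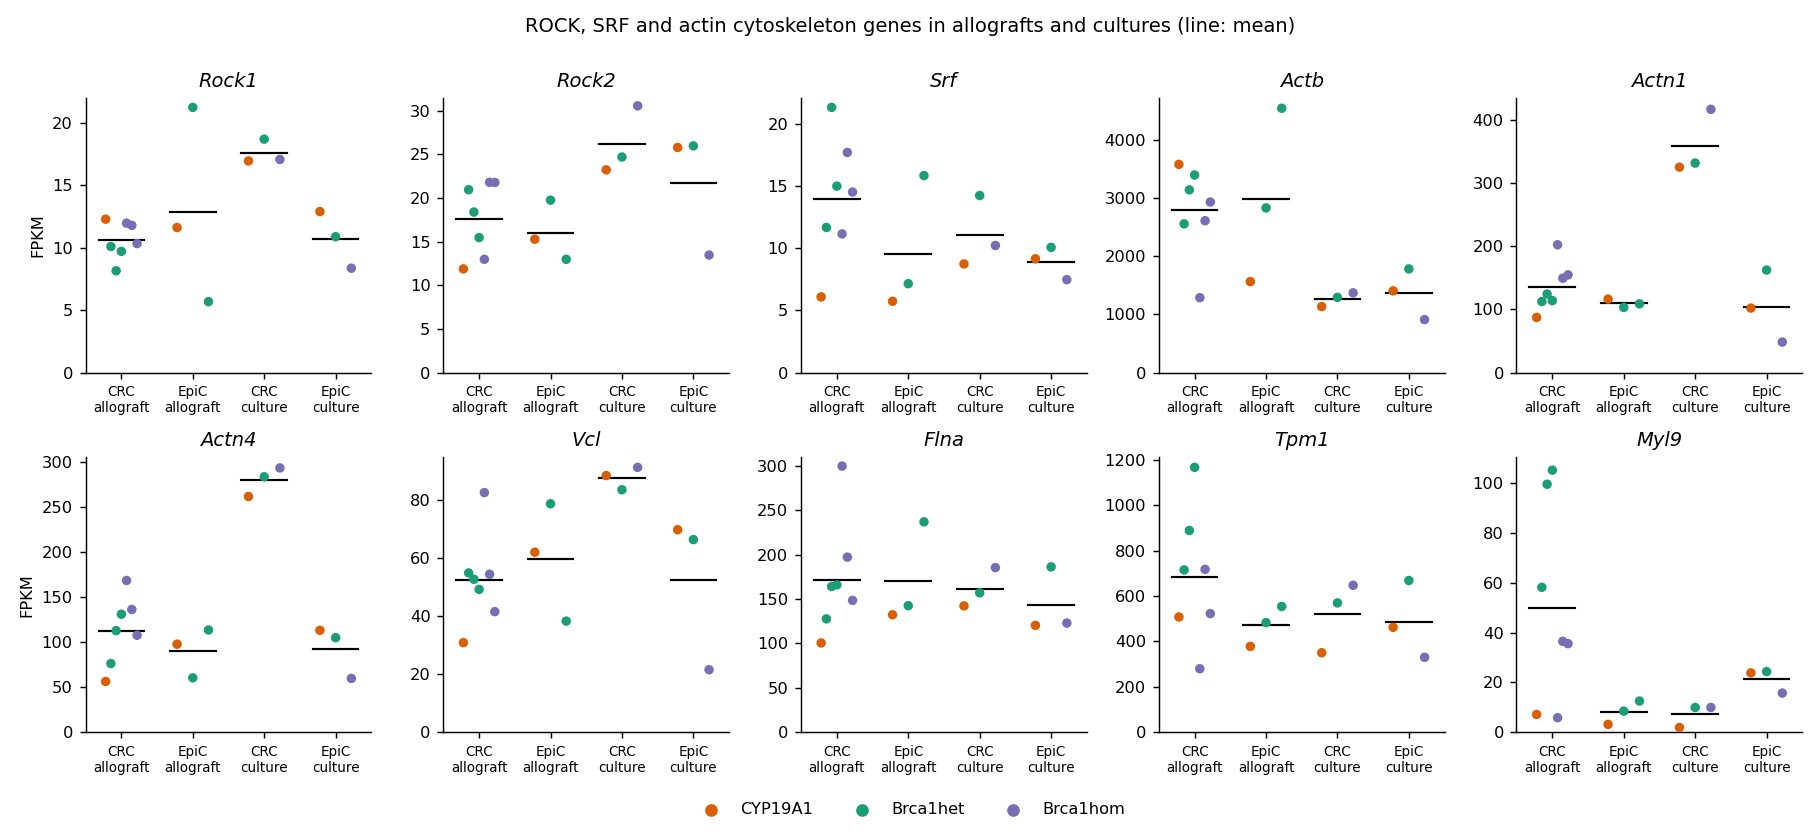
Levels of the 10 members in FPKM (vertical axes, linear, each from 0) in allografts and cultures of the first table, with 1 point per library coloured by genotype and a line at the group mean. Each CRC culture held at least 325 FPKM of Actn1 and 262 FPKM of Actn4, and no library of the other 3 groups held more than 202 FPKM of Actn1 or 169 FPKM of Actn4.

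Rock1 stood at 16.9, 18.7 and 17.1 FPKM in CRC cultures 1, 2 and 3, against 12.9, 10.9 and 8.35 FPKM in EpiC cultures 1, 2 and 3. All 3 CRC cultures lay above all 3 EpiC cultures. The limma log2 difference was 0.68 (SE 0.19) with a Benjamini-Hochberg adjusted p of 0.0633, so Rock1 was not called. It was called when genotype was left out of the model (adjusted p = 0.0369). Rock2, the other ROCK isoform, stood at 23.2, 24.7 and 30.6 FPKM in CRC cultures, against 25.8, 26.0 and 13.5 FPKM in EpiC cultures. The groups overlapped, and the low value was that of EpiC culture 3. Its log2 difference was 0.30 (SE 0.31, 95% interval −0.53 to 1.13, limma adjusted p = 0.492). Rock2 exceeded Rock1 in all 6 cultures, with a ratio of 1.32 to 1.79 in CRC cultures and 1.61 to 2.39 in EpiC cultures.

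Srf itself stood at 8.74, 14.2 and 10.2 FPKM in CRC cultures, against 9.15, 10.1 and 7.47 FPKM in EpiC cultures. The groups overlapped, and the log2 difference was 0.27 (SE 0.19, 95% interval −0.23 to 0.77, limma adjusted p = 0.325). Actb, cytoplasmic beta-actin, stood at 1133, 1291 and 1369 FPKM in CRC cultures, against 1403, 1780.1 and 909.7 FPKM in EpiC cultures. The EpiC cultures spread on both sides of the CRC cultures, with a log2 difference of −0.06 (SE 0.26, 95% interval −0.76 to 0.64, limma adjusted p = 0.879). Actb is nearly identical to Actg1 in its coding sequence and has processed pseudogenes, so how reads were shared among them is uncertain. Actg1, the other cytoplasmic actin, averaged 696 ± 78.3 FPKM in CRC cultures and 253 ± 166 FPKM in EpiC cultures (SD, n = 3 each), and was not called.

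Actn1 stood at 325, 332 and 417 FPKM in CRC cultures 1, 2 and 3, against 102, 162 and 48.3 FPKM in EpiC cultures. Each CRC culture was at least 2 times as high as the highest EpiC culture, and the low value was again EpiC culture 3. The log2 difference was 1.92 (SE 0.43, limma adjusted p = 0.0424), a 3.80-fold higher level in CRC cultures on the log2(FPKM + 1) scale, and it was positive in 3 of 3 genotypes. Actn4 stood at 262, 284 and 294 FPKM in CRC cultures, against 113, 105 and 59.7 FPKM in EpiC cultures. These groups were also separate, with less spread than for Actn1. The log2 difference was 1.64 (SE 0.26, limma adjusted p = 0.0228), a 3.11-fold higher level in 3 of 3 genotypes. With genotype in the model, a genotype left with 1 culture adds nothing to the difference, so leaving out either culture removes the pair. Both calls were lost, with the direction kept, when culture 1 or culture 2 of either medium was left out (limma adjusted p = 0.0979 to 0.124 for Actn1 and 0.0624 to 0.113 for Actn4). Without culture 3 of either medium both were still called, with a log2 difference of 1.34 for Actn1 and 1.31 for Actn4. Without a filter on low values the call of Actn1 was lost (adjusted p = 0.087). The 2 genes are paralogues, and reads from their similar stretches could be shared between them.

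Vcl encodes vinculin, which links talin and alpha-catenin to actin at focal adhesions and adherens junctions. Its levels were 88.5, 83.6 and 91.3 FPKM in CRC cultures, against 69.8, 66.4 and 21.5 FPKM in EpiC cultures. The groups did not overlap, but EpiC culture 3 lay far below the other EpiC cultures, and the log2 difference of 0.90 (SE 0.41) had a limma adjusted p of 0.166. Flna, the actin crosslinker filamin A, stood at 142, 157 and 185 FPKM in CRC cultures, against 120.3, 186 and 123 FPKM in EpiC cultures. Its groups overlapped, with a log2 difference of 0.19 (SE 0.22, 95% interval −0.38 to 0.77, limma adjusted p = 0.524). Tpm1, a tropomyosin that lies along actin filaments and steadies them, stood at 349.97, 569.6 and 647 FPKM in CRC cultures, against 462, 668 and 329.9 FPKM in EpiC cultures. It overlapped as well, with a log2 difference of 0.11 (SE 0.32, 95% interval −0.75 to 0.97, limma adjusted p = 0.809).

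Myl9, the regulatory light chain of smooth muscle and non-muscle myosin II and a substrate of ROCK and of myosin light chain kinase, ran the other way. It stood at 1.87, 9.90 and 9.91 FPKM in CRC cultures, against 23.8, 24.3 and 15.7 FPKM in EpiC cultures. Every CRC culture lay below every EpiC culture, and CRC culture 1 was the lowest. The log2 difference was −1.65 (SE 0.52) with a limma adjusted p of 0.0861, so it was not called. Without culture 3 of either medium the difference was −2.16 and was called (limma adjusted p = 0.0452 without CRC culture 3 and 0.0448 without EpiC culture 3).

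Beside these differences, other cell type markers moved with the medium. Markers of myoepithelium and smooth muscle (10 genes) summed to 8815 to 13121 FPKM in CRC cultures and 23.2 to 385 FPKM in EpiC cultures. Krt5 and Krt14, keratins of basal epithelium, made up most of that sum in CRC cultures, while the defining smooth muscle gene Myh11 reached at most 0.47 FPKM in the 6 cultures. Fibroblast markers (10 genes) summed to 81.5 to 117 FPKM in CRC cultures and 4120 to 6685 FPKM in EpiC cultures. Their part in the differences of the members was not tested, and in bulk RNA fewer cells of a type and less RNA per cell cannot be told apart.

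Between the media, among 17 tested ROCK substrates and myosin II genes 2 were higher and 0 lower in CRC cultures, where 11.4% of all genes were higher and 11.7% lower. Limk2, a LIM kinase activated by ROCK that phosphorylates cofilin, stood at 49.3, 46.5 and 44.6 FPKM in CRC cultures, against 14.7, 11.8 and 5.29 FPKM in EpiC cultures. All CRC cultures lay well above all EpiC cultures, a log2 difference of 2.15 (SE 0.28, limma adjusted p = 0.016). The second gene was Ppp1r12a, the myosin phosphatase targeting subunit that ROCK inhibits (log2 1.11, SE 0.16).

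Of 20 genes of actin nucleation and turnover 6 were higher and 2 lower in CRC cultures. The formin gene Diap1 (log2 1.46, SE 0.30) and the Arp2/3 subunit gene Arpc2 (1.45, SE 0.18) rose, and the severing protein gene Gsn (−1.12) fell. Of 15 actins and tropomyosins, Tpm2 (log2 1.15) and the calponin gene Cnn3 (1.00) rose and the pointed-end capping gene Tmod1 (−1.91) fell. Of 20 focal adhesion genes and crosslinkers 1 was higher and 3 lower, the lower ones being Flnc, the muscle filamin (log2 −2.10), the kindlin gene Fermt2 (−1.20) and the tensin gene Tns1 (−1.08). Of 19 SRF cofactors and target genes, the immediate early gene Fos rose (log2 3.32, SE 0.63, limma adjusted p = 0.031), while Tgfb1i1 (Hic-5, a focal adhesion adaptor, −1.45) and the ternary complex factor gene Elk1 (−1.18) fell. Fos stood at 58.3, 141 and 97.0 FPKM in CRC cultures, against 18.5, 10.7 and 2.66 FPKM in EpiC cultures.

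**Figure D2:**
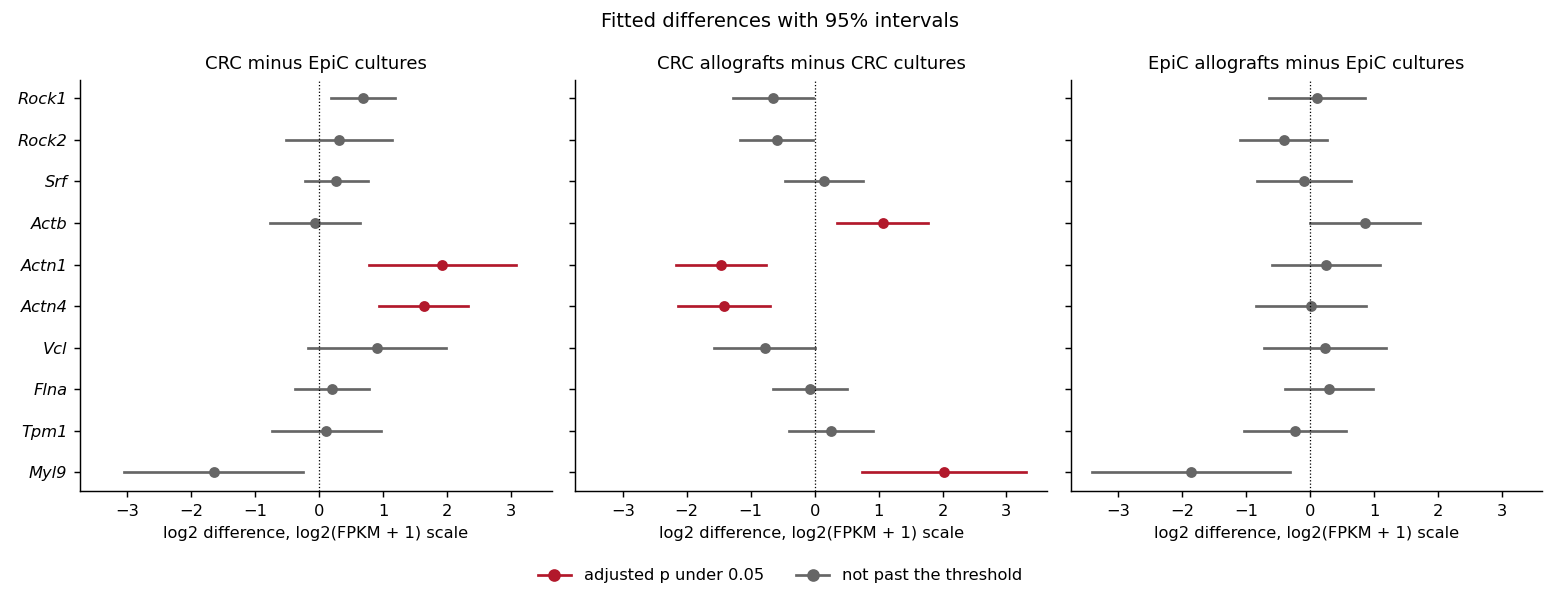
Limma log2 differences on the log2(FPKM + 1) scale (horizontal axis) of the 10 members, with 95% intervals as lines, for CRC minus EpiC cultures and for allografts minus cultures of each medium, in red for genes called at an adjusted p under 0.05 and grey for the others. Actn1 and Actn4 were higher in CRC cultures (1.92 and 1.64) and lower in CRC allografts than in CRC cultures (−1.47 and −1.42).

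In allografts of CRC cells, Actn1 and Actn4 were lower and Actb and Myl9 were higher than in the CRC cultures, while the kinases and Srf were not called. Of the members 4 of 10 were called, 2 in each direction, beside 39.6% of the 12325 genes tested, so the count is close to the background. All libraries of the 2 groups were separate for 5 members, all below the cultures (Rock1, Rock2, Actn1, Actn4 and Vcl), beside 41.1% of all genes. The median log2 difference was −0.34 over the members and 0.04 over all genes. In allografts of EpiC cells 0 of 10 members were called by limma, beside 14.2% of all genes, and 1 member (Myl9) had an unadjusted p under 0.05. An allograft holds RNA of host cells as well. Macrophage markers (10 genes) summed to 4170 to 13760 FPKM in CRC allografts and 4643 to 13791 FPKM in EpiC allografts, against 7.47 to 55.4 FPKM in the 6 cultures. The part of host cells in the values of the members was not tested.

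Actn1 had 87.3, 124 and 202 FPKM as lowest, median and highest value in the 7 CRC allografts, against 325 to 417 FPKM in CRC cultures. No allograft reached the lowest culture. The log2 difference was −1.47 (SE 0.33, limma adjusted p = 0.00284), a 2.77-fold lower level. In EpiC allografts 4C, 5A and 7B it stood at 103, 109 and 116 FPKM, within the range of 48.3 to 162 FPKM of the EpiC cultures. Actn4 had 56.3, 113 and 169 FPKM in CRC allografts as lowest, median and highest value, against 262 to 294 FPKM in CRC cultures. The groups were separate, with a log2 difference of −1.42 (SE 0.33, limma adjusted p = 0.00396) and a 2.67-fold lower level. In the EpiC allografts Actn4 stood at 60.4, 114 and 97.8 FPKM, against 113, 105 and 59.7 FPKM in the EpiC cultures, and the groups overlapped. The decreases of Actn1 and Actn4 in CRC allografts were called whichever library was left out.

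Actb ran from 1286 FPKM in CRC allograft 1 to 3576 FPKM in CRC allograft 6C with a median of 2929 FPKM, against 1133 to 1369 FPKM in CRC cultures. The lowest allograft lay within the range of the cultures and the other 6 lay above it. Its log2 difference of 1.06 (SE 0.33, limma adjusted p = 0.0209) is a 2.09-fold higher level. The call was lost without CRC allograft 6C (adjusted p = 0.0531), without CRC culture 1 (0.0756) or 2 (0.133), and without a filter on low values (0.0808). In EpiC allografts 4C, 5A and 7B Actb stood at 2828, 4539.9 and 1563 FPKM, against 1403, 1780.1 and 909.7 FPKM in EpiC cultures 1, 2 and 3. The highest of these was 5A, the library with lower levels of long transcripts and the largest summed FPKM of the first table. Actb was not called for EpiC, and the order of its values was not scaled to that sum. Macrophage markers, of a cell type that expresses Actb strongly, summed to 13760 FPKM in CRC allograft 6C, 4271 in 11C, 5233 in 10C, 9098 in 12, 9135 in 2, 4170 in 10B and 7380 in 1, listed from the highest to the lowest Actb. In EpiC allografts 5A, 4C and 7B, again by falling Actb, they summed to 13791, 4643 and 6609 FPKM, and their part in Actb was not tested.

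Myl9 varied most among the CRC allografts. It stood at 5.80 FPKM in CRC allograft 1, 7.11 in 6C, 35.6 in 12, 36.5 in 2, 58.2 in 10B, 99.6 in 10C and 105 in 11C, against 1.87, 9.90 and 9.91 FPKM in CRC cultures 1, 2 and 3. In 5 of the 7 allografts it lay above all CRC cultures, and the 3 highest were the Brca1het allografts. Limma gave a log2 difference of 2.02 (SE 0.60, adjusted p = 0.0156), a 4.05-fold higher level, and the call was lost without CRC culture 1 (adjusted p = 0.0733) or 2 (0.0992). In EpiC allografts 4C, 5A and 7B it stood at 8.45, 12.5 and 3.13 FPKM, against 23.8, 24.3 and 15.7 FPKM in EpiC cultures 1, 2 and 3. All EpiC allografts lay below all EpiC cultures, a separation in one direction or the other that 28.8% of all genes showed, but the log2 difference of −1.86 (SE 0.72) had a limma adjusted p of 0.103.

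**Figure D3:**
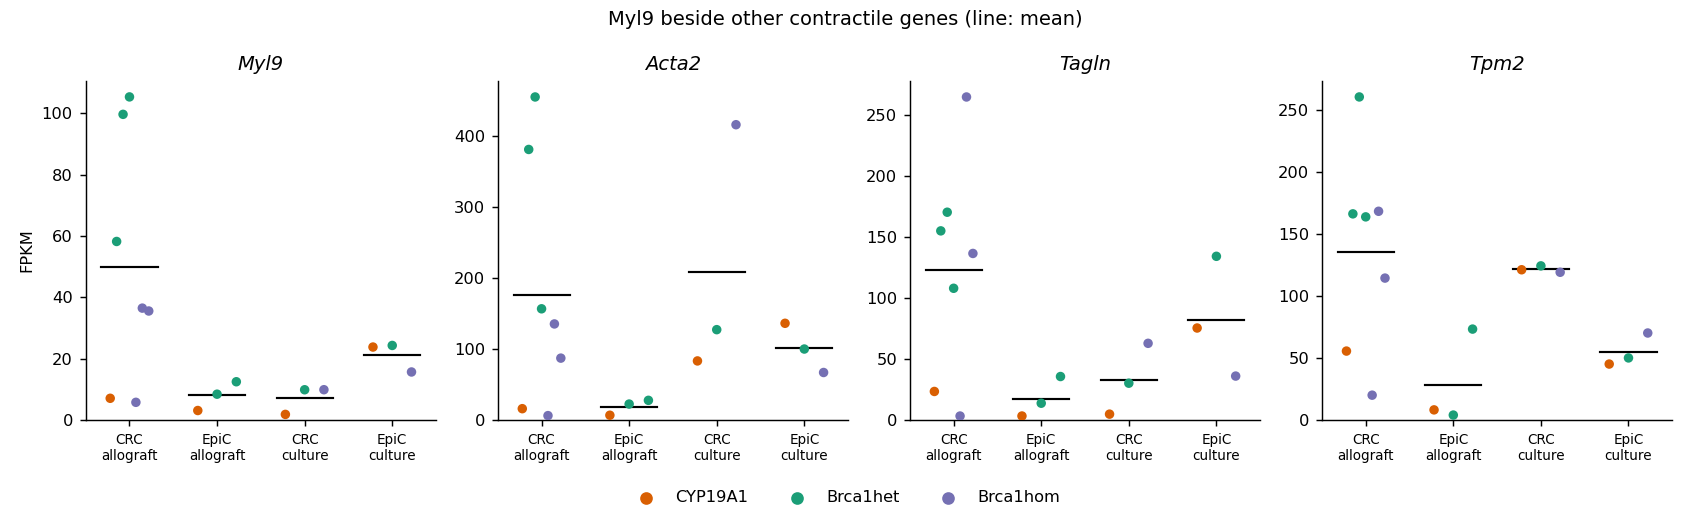
Myl9 and 3 other genes of contractile cells in FPKM (vertical axes, linear, each from 0) in allografts and cultures, with 1 point per library coloured by genotype and a line at the group mean. Myl9, Acta2, Tagln and Tpm2 spread widely over the CRC allografts, and CRC allograft 1 was the lowest of the 7 in each panel.

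Other genes of contractile cells were looked up after the values of Myl9 had been seen. Acta2, smooth muscle alpha-actin, stood at 6.35 FPKM in CRC allograft 1, 16.1 in 6C, 87.3 in 12, 135 in 2, 157 in 11C, 381 in 10B and 455 in 10C, against 22.6, 27.9 and 6.90 FPKM in EpiC allografts 4C, 5A and 7B. As for Myl9, CRC allografts 1 and 6C were the low ones. Tagln (transgelin, an SRF target of smooth muscle) ran from 3.36 to 265 FPKM in CRC allografts and from 3.38 to 35.7 FPKM in EpiC allografts. The smooth muscle myosin gene Myh11 reached at most 0.55 FPKM in CRC allografts and 0.58 in EpiC allografts. Skeletal muscle markers (10 genes) summed to 199 FPKM in CRC allograft 1, 11.0 in 6C, 83.9 in 12, 130 in 2, 57.3 in 11C, 79.6 in 10B and 659 in 10C, against 24.2, 12.2 and 5.78 FPKM in EpiC allografts 4C, 5A and 7B. Fibroblast markers summed to 1809 to 5325 FPKM in CRC allografts and 759 to 3937 FPKM in EpiC allografts, with the lowest CRC value in allograft 1 and the lowest EpiC value in 5A. Pericyte and endothelial markers (10 genes) summed to 99.1 to 225 FPKM in CRC allografts and 61.1 to 289 FPKM in EpiC allografts. The lowest CRC value was in allograft 2 and the highest in 10C, with 104 FPKM in allograft 1 and 160 FPKM in 6C. The part of such cells in Myl9 was not tested.

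Among the kinases, Rock1 had 8.14, 10.3 and 12.3 FPKM as lowest, median and highest value in CRC allografts, against 16.9 to 18.7 FPKM in CRC cultures. The allografts all lay below the cultures, yet the log2 difference of −0.66 (SE 0.29) had a limma adjusted p of 0.0879. In EpiC allografts 4C, 5A and 7B Rock1 stood at 21.2, 5.67 and 11.6 FPKM, against 8.35 to 12.9 FPKM in EpiC cultures. The value of 5A, the library with low levels of long transcripts, was the lowest and that of 4C the highest in the first table. Without 5A or without 4C the decrease of Rock1 in CRC allografts was called (adjusted p = 0.0181 and 0.0213). Rock2 had 11.9, 18.4 and 21.8 FPKM as lowest, median and highest value in CRC allografts, against 23.2 to 30.6 FPKM in CRC cultures. These groups were separate too, with a log2 difference of −0.59 (SE 0.26, limma adjusted p = 0.0879). In EpiC allografts Rock2 stood at 19.8, 12.98 and 15.3 FPKM, and those values overlapped with the 13.5 to 26.0 FPKM of EpiC cultures. The decrease of Rock2 was called without EpiC culture 3 (adjusted p = 0.0382).

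Srf ran from 6.09 FPKM in CRC allograft 6C to 21.3 FPKM in 10C with a median of 14.5 FPKM, against 8.74 to 14.2 FPKM in CRC cultures. The allografts spread on both sides of the cultures, with a log2 difference of 0.14 (SE 0.29, 95% interval −0.47 to 0.75, limma adjusted p = 0.72). In EpiC allografts 4C, 5A and 7B Srf stood at 7.15, 15.8 and 5.73 FPKM, around the range of 7.47 to 10.1 FPKM in EpiC cultures. Vcl had 30.9, 52.7 and 82.6 FPKM as lowest, median and highest value in CRC allografts, against 83.6 to 91.3 FPKM in CRC cultures. The highest allograft nearly met the lowest culture, and the log2 difference of −0.78 (SE 0.37) had a limma adjusted p of 0.106. It was called without CRC allograft 1 (adjusted p = 0.0458) or without EpiC culture 3 (0.028).

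Flna had 100.5, 164 and 299.7 FPKM in CRC allografts as lowest, median and highest value, against 142 to 185 FPKM in CRC cultures. The allografts lay on both sides, and the log2 difference was −0.08 (SE 0.27, 95% interval −0.65 to 0.50, limma adjusted p = 0.847). Tpm1 had 279, 715 and 1167 FPKM in CRC allografts, against 349.97 to 647 FPKM in CRC cultures. Its groups overlapped with a log2 difference of 0.26 (SE 0.31, 95% interval −0.41 to 0.92, limma adjusted p = 0.538). In EpiC allografts 4C, 5A and 7B Vcl stood at 78.8, 38.3 and 62.1 FPKM, against 69.8, 66.4 and 21.5 FPKM in EpiC cultures. In the same EpiC allografts Flna, the member with the longest transcript, stood at 142, 237 and 132 FPKM. Tpm1 stood at 483, 554 and 378 FPKM in them. Both were highest in 5A, which had low levels of long transcripts and the largest summed FPKM of the first table. Their order was not scaled to that sum. Flna and Tpm1 overlapped with EpiC cultures, where Flna ran from 120.3 to 186 FPKM and Tpm1 from 329.9 to 668 FPKM.

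Whether the change between culture and allograft differed by medium was tested as an interaction over the 16 libraries. Of the members 2 were called, Myl9 with a more positive change in CRC (3.88, SE 0.94, limma adjusted p = 0.0156) and Actn1 with a more negative one (−1.72, SE 0.51, limma adjusted p = 0.0425), beside 12.2% of the 12325 genes tested (6.35% more positive and 5.87% more negative). At an unadjusted p under 0.05 there were 3 members. Actn4 had a difference of −1.43 (SE 0.52) and an adjusted p of 0.0911, and Rock1 one of −0.77 (SE 0.46, adjusted p = 0.316). The call of Myl9 was lost without EpiC culture 1 (3.08, adjusted p = 0.0634) and without genotype in the model (adjusted p = 0.0523). The call of Actn1 was lost in 12 of 16 fits that left out 1 library, with differences from −2.25 to −1.25 and adjusted p from 0.00936 to 0.151. It was also lost with CRC allografts 10B and 10C as 1 sample (−1.69, adjusted p = 0.0713) and without a filter on low values (adjusted p = 0.0608). Rock1 was called when EpiC allograft 5A was left out (−1.21, adjusted p = 0.0329).

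In CRC allografts, compared with CRC cultures, the pathway lists held called genes in both directions. Of 19 tested ROCK substrates and myosin II genes 3 rose and 5 fell, where 21.2% of all genes rose and 18.4% fell. Limk2 ran from 6.39 to 11.8 FPKM in CRC allografts, against 44.6 to 49.3 FPKM in CRC cultures. The groups were far apart (log2 −2.29, SE 0.27, limma adjusted p = 1.51e-05), whereas Limk2 stood at 8.63 to 9.29 FPKM in EpiC allografts and 5.29 to 14.7 FPKM in EpiC cultures. The non-muscle myosin heavy chain gene Myh14 (log2 −3.94) and Ezr, which encodes the membrane linker ezrin (−3.03), also fell. Both are abundant in epithelia, and luminal epithelial markers summed to 38.9 to 497 FPKM in CRC allografts and 1004 to 2446 FPKM in CRC cultures. The part of epithelial cells in the falls of Myh14 and Ezr was not tested.

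Of 20 focal adhesion genes and crosslinkers 6 rose and 2 fell in CRC allografts. The 3 largest changes were rises of the parvin gene Parvb (log2 3.11), Tns1 (2.66) and Flnc (1.86). Of 19 SRF cofactors and targets 1 rose and 3 fell, with Fos (log2 −3.31) and Junb (−2.32) falling and Tgfb1i1 (2.36, SE 0.37) rising. Tgfb1i1 ran from 6.64 to 43.5 FPKM in CRC allografts, against 1.82 to 3.08 FPKM in CRC cultures. Tpm3 rose (log2 1.28), and Tmod3 (−0.95) and Tpm4 (−0.59) fell among 15 actins and tropomyosins. Of 20 nucleation and turnover genes 2 rose and 2 fell, with the Arp2/3 genes Arpc1b (log2 1.39) and Actr2 (−1.04) in opposite directions.

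In EpiC allografts, compared with EpiC cultures, the lists held between 1 and 4 called genes each. Among SRF cofactors and targets 1 of 19 rose and 3 fell, where 7.94% of all genes rose and 6.26% fell, with Junb (log2 −4.13, SE 0.95) and the matricellular gene Cyr61 (−2.83, SE 0.51) falling. Among actins and tropomyosins Cnn1, the smooth muscle calponin, fell (log2 −3.45, SE 0.89), and Actg1 (1.66) and Tpm3 (1.26) rose. Of the nucleation and turnover genes, Arpc2 (log2 1.52) and Coro1c (1.03) rose. Myh14 (−2.47) and Ppp1cb (−1.27) were the 2 genes of the list of ROCK substrates and myosin II that fell. In the interaction test, the change of Limk2 was more negative in CRC (−2.18, SE 0.42, limma adjusted p = 0.00395), as were those of Fos (−3.60), Arpc2 (−1.71) and Diap1 (−1.68). Tgfb1i1 (3.29), Cyr61 (2.70), Flnc (2.65) and Fermt2 (1.48) had more positive changes in CRC.

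Among allografts, the medium in which the cells had been grown before grafting left no member called. Of the 10 members 0 were called by limma, beside 0.00833% of 11999 genes (1 gene), and 1 member, Myl9, had an unadjusted p under 0.05. Myl9 averaged 49.7 ± 40.4 FPKM in CRC allografts (SD, n = 7) and 8.03 ± 4.70 FPKM in EpiC allografts (n = 3). The groups overlapped, with CRC allografts 1 and 6C inside the EpiC range. With genotype in the model the log2 difference was 2.35 (SE 0.62, limma adjusted p = 0.344). For no member were the libraries of the 2 groups separate, where 2.38% of all genes were. The 6 pathway lists held 0 called genes in this comparison, in which 1 gene was called in all. Brca1hom has only CRC allografts, so the fitted difference rests on the other genotypes.

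Between genotypes, over the 16 libraries with group in the model, no member was called. For CYP19A1 against Brca1het limma called 0 of 10 members, beside 0.00811% of 12325 genes, and 3 members had an unadjusted p under 0.05, namely Myl9 (log2 −1.93), Srf (−0.71) and Tpm1 (−0.67), each with an adjusted p of 0.731. Myl9 stood at 1.87, 23.8, 7.11 and 3.13 FPKM in CYP19A1 CRC culture 1, EpiC culture 1, CRC allograft 6C and EpiC allograft 7B. The Brca1het libraries stood at 9.90, 24.3, 58.2 to 105, and 8.45 to 12.5 FPKM in the same 4 kinds. The cultures are 1 library of each genotype per medium, and the EpiC cultures of both genotypes were close. For Brca1hom against Brca1het limma again called 0 members, beside 0.00811% of all genes, and 2 had an unadjusted p under 0.05, Tpm1 (log2 −0.70, adjusted p = 0.851) and Myl9 (−1.27, adjusted p = 0.856).

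In the cancers and the cultures grown from them, Myl9 was lower in every culture than in both primary cancers, and no member was called. In CRC cultures 1 and 2 of these cancers it stood at 0.0823 and 2.22 FPKM, and in EpiC cultures 1 and 2 at 0.112 and 0.145 FPKM, against 16.3 and 5.62 FPKM in primary cancers 1 and 2. The log2 difference was −2.52 (SE 0.77) for CRC cultures, with a limma adjusted p of 0.383, and −3.25 (SE 0.77) for EpiC cultures, with a limma adjusted p of 0.185. Limma called 0 of 10 members in either comparison, beside 0.889% of 12266 genes for CRC cultures (0.473% lower) and 0.677% for EpiC cultures, and in each 1 member, Myl9, had an unadjusted p under 0.05. Libraries were separate for Myl9 alone in CRC cultures (29.8% of all genes) and for Myl9 and Tpm1 in EpiC cultures (39.1%). Macrophage markers summed to 9.38 to 13.1 FPKM in CRC cultures, 14.2 to 36.9 FPKM in EpiC cultures and 1071 to 1554 FPKM in primary cancers, and fibroblast markers to 52.1 to 73.7, 42.6 to 57.1 and 261 to 445 FPKM in the same groups. Pericyte and endothelial markers (10 genes) summed to 0.909 to 3.43 FPKM in CRC cultures and 1.34 to 3.08 FPKM in EpiC cultures. In primary cancers they summed to 49.5 to 62.6 FPKM. The part of these cell types in the level of Myl9 was not tested.

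**Figure D4:**
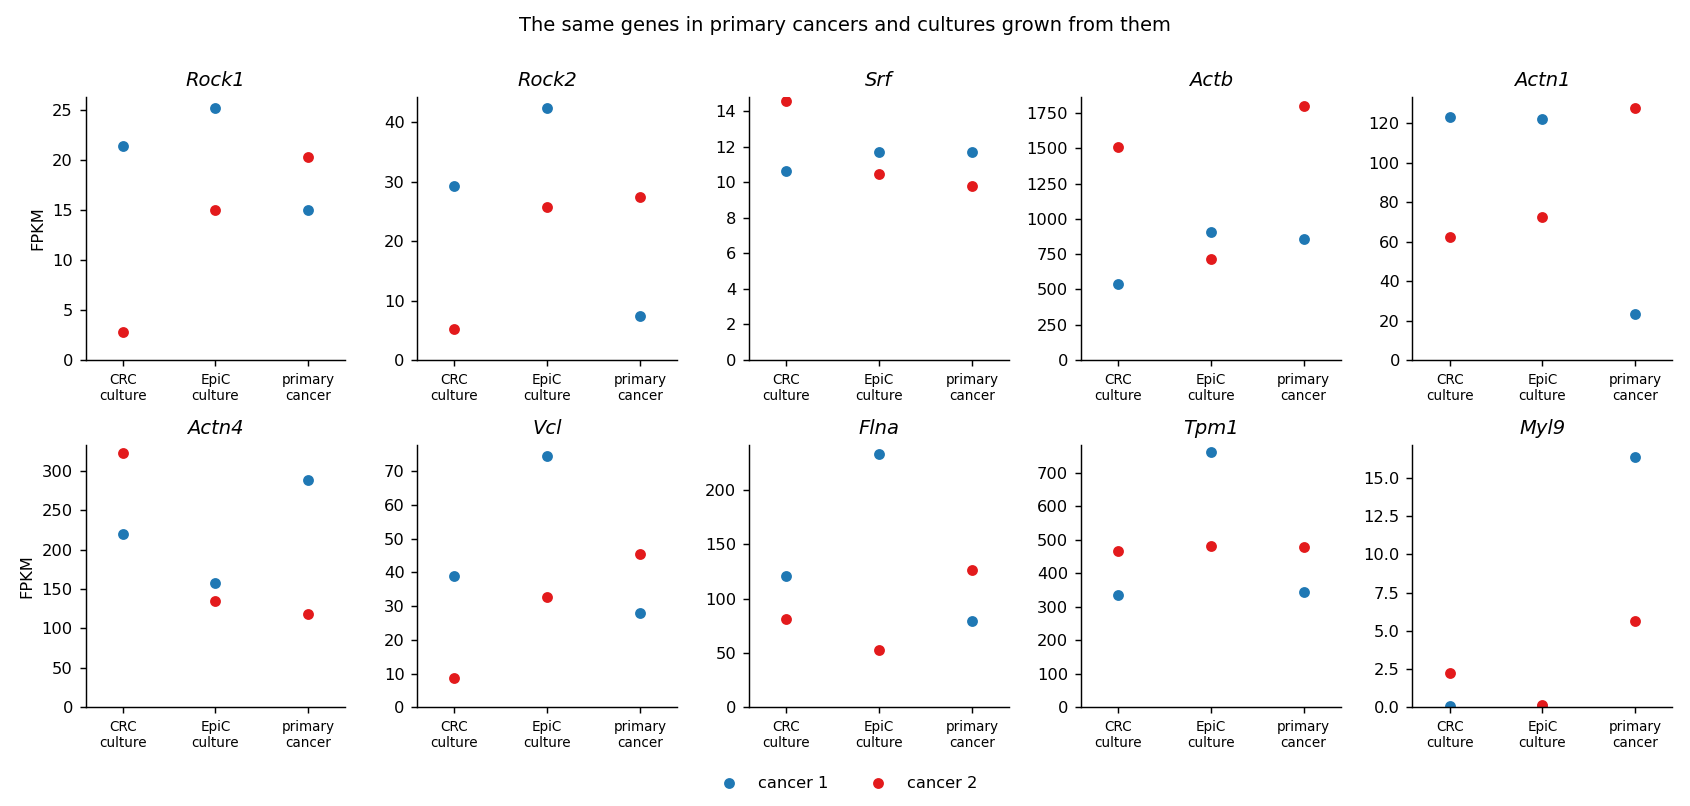
Levels of the 10 members in FPKM (vertical axes, linear, each from 0) in CRC cultures, EpiC cultures and the primary cancers they were grown from, with 1 point per library coloured by cancer. Myl9 was at most 2.22 FPKM in the cultures and 5.62 and 16.3 FPKM in the cancers, while the other members overlapped between cultures and cancers, except Tpm1 in EpiC cultures.

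Between the CRC and EpiC cultures of the cancers limma called 0 of 10 members, beside 0.00815% of all genes, and 0 members had an unadjusted p under 0.05. Actn4 stood at 220.1 and 323 FPKM in CRC cultures 1 and 2, against 158 and 135 FPKM in EpiC cultures 1 and 2. Both CRC cultures lay above both EpiC cultures for Actn4 and below both for Tpm1 (336 and 465 FPKM, against 762 and 482 FPKM). These were 2 of 10 members, beside 26.0% of all genes that did not overlap in either direction. CRC culture 2 had the largest summed FPKM of the second table, and whether these separations hold on values scaled to that sum was not tested. Actn1 stood at 123 and 62.4 FPKM in CRC cultures, against 122 and 72.5 FPKM in EpiC cultures. These values overlapped, unlike those of the first table, which was normalised separately. The primary cancers held 23.1 and 128 FPKM of Actn1 and 288 and 119 FPKM of Actn4, so the ratio of Actn1 to Actn4 was 0.0801 in cancer 1 and 1.08 in cancer 2.

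Rock1 stood at 21.4 and 2.78 FPKM in CRC cultures of cancers 1 and 2, at 25.2 and 15.1 FPKM in EpiC cultures, and at 15.0 and 20.3 FPKM in primary cancers. Rock2 stood at 29.3 and 5.14 FPKM in CRC cultures, 42.4 and 25.7 FPKM in EpiC cultures, and 7.39 and 27.4 FPKM in primary cancers. For both kinases the lowest library was the CRC culture of cancer 2, where long transcripts were low. Vcl, whose longest transcript (5267 bases) is under the 6 kb limit, was also lowest there. It stood at 8.79 FPKM beside 39.1 FPKM in CRC culture 1, against 28.0 and 45.4 FPKM in the primary cancers. Srf ran from 9.78 to 14.5 FPKM over all 6 libraries, the narrowest range of the members. Actb stood at 539 and 1511 FPKM in CRC cultures, 906 and 717 FPKM in EpiC cultures and 861 and 1799.5 FPKM in primary cancers. Flna stood at 121 and 81.2 FPKM in CRC cultures, 233 and 52.99 FPKM in EpiC cultures, and 79.2 and 126 FPKM in primary cancers. Its longest transcript has 8456 bases, and its lowest FPKM was that of EpiC culture 2. The CRC culture of cancer 2 had the largest summed FPKM of the second table, and the order of the Flna values was not scaled to that sum. Tpm1, at 336 and 465 FPKM in CRC cultures and 762 and 482 FPKM in EpiC cultures, against 345 and 479 FPKM in primary cancers, was above both cancers in EpiC cultures alone, although its 482 and 479 FPKM are close.

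Across the 22 libraries the members kept a broad order of level. Actb was between percentiles 99.2 and 100 of the genes of each library, and Tpm1 between 98.3 and 99.7. Flna, Actn4 and Actn1 were at least at percentiles 92.7, 92.8 and 83.9, while Rock1 ranged from 63.2 to 84.7, Rock2 from 66.4 to 89.6 and Srf from 66.9 to 83.9. Vcl ranged from 75.6 to 96.1, and Myl9 had the widest range, from 39.3 to 96.7.

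For each member the most similar profiles over the 16 cultures and allografts were sought among 8941 genes whose mean reached 5 FPKM, by the mean absolute difference of log2(FPKM + 1) after each gene was centred on its own mean. Actn4 was the second most similar gene to Actn1, at 0.26, after Dock9 at 0.25. The gene nearest to Actn4 was Osbpl5 (0.21), and those nearest to Rock1 were Csnk1g1 and Creb1 (0.14 each). Rbms1 (0.20) was nearest to Rock2, Rangap1 (0.17) to Srf, Cpsf4 (0.22) to Actb, Myof (0.22) to Vcl, Slc8b1 (0.19) to Flna and Lysmd2 (0.21) to Tpm1. The genes nearest to Myl9 were Tgfb1i1 (0.63), Cercam (0.70) and Speg (0.70). A distance grows with the spread of the gene itself, and the mean absolute deviation of Myl9 from its own mean was 1.25, against 0.30 for Flna to 0.63 for Actb among the other members. These distances are descriptions of 16 shared libraries and carry no test.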

How the data were processed

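Poly(A) RNA was sequenced as paired-end TruSeq libraries, per the labels' protocols. The deposited values are FPKM, made by the authors with FastQC, Trim Galore, TopHat and Cufflinks on build mm9, per the submitters' processing notes; versions, annotation and counting strand were not given in the sources used here. The tables of 16 and 6 libraries were normalised separately, so tests were made within a table. Among the cancers and their cultures, entries of 162 symbols listed repeatedly were summed (0 of them members). Of the values above 0 in that set, 51.5% had over 6 digits, and a final 5 was found in 97.2% of these, which is how the mean of a pair of values looks, so some values could be averages. Depth and read counts were not analysed here. Among 135 pairs of libraries 0 were identical (highest r across genes 0.991).

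Log2(FPKM + 1) values were fitted with limma 3.58.1 (lmFit, eBayes with trend) in R 4.3.3, for genes whose mean over the fitted libraries reached 1 FPKM. A call is a Benjamini-Hochberg adjusted p under 0.05 over all genes tested. A fold is 2 to the power of the log2 difference, which understates the change of low genes. The media were compared in 6 cultures and in 10 allografts with genotype in the model. Allografts against cultures, their interaction with medium and the genotypes came from a fit of 16 libraries. Cancers and their cultures came from a fit of 6 libraries without the cancer as a block. In that set, titles with the same number share a cancer, which pairs these libraries; their deviations from the group means correlated across genes at −0.0555 (CRC culture and cancer), −0.113 (EpiC culture and cancer) and 0.242 (CRC and EpiC culture). The fits were checked on simulated data, with changes larger than those of any member and a spread set below that of the data. That check does not cover calls of the size seen for the members.

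Members, pathway lists and cell type lists were chosen with earlier results of these data known. One pathway list is not reported here. The text names the 10 members, up to 3 called genes of a list per comparison by absolute log2 difference, the summed level and defining gene of a cell type list, and the 3 nearest profiles of a member; other genes are said to be chosen after their values were seen. The alternatives tried were rescaling by median ratios, a pseudocount of 0.1, testing genes of any level or those reaching 5 FPKM, the omission of each library, models without genotype, Brca1het allografts alone, allografts 10B and 10C as 1 sample, the cancer as a block, and the largest entry of a shared symbol. Transcript lengths came from GENCODE and covered 95.9% and 95.2% of the genes checked.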

Additional observations from a re-analysis of the deposited data

Results flagged for a closer look

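The change between culture and allograft differed between the media for 2 members by the interaction test. For Actn1 the change in CRC minus that in EpiC was −1.72 on the log2 scale, and the EpiC allografts lay within the range of the EpiC cultures. For Myl9 it was 3.88, with 5 of 7 CRC allografts above all CRC cultures and all 3 EpiC allografts below all EpiC cultures. Both depend on particular libraries, as given with the results, and the call of Actn1 was lost with CRC allografts 10B and 10C as 1 sample and without a filter on low values. Each member was also checked for a library far from the others among the 7 CRC allografts (10 checks, 0 found). Chance alone would mark about 1 in 20 such groups.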

How the results depend on the processing

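For single members, 175 values under another setting kept their direction and side of the threshold, 5 lost a call, 1 gained one and 1 changed sign. With 1 library left out, 356 kept both, 26 lost a call, 8 gained one and 12 changed sign. Signs changed for members that were not called. Between the cultures, with 1 library left out, the log2 difference of Rock2 ran from −0.11 to 0.53, that of Actb from −0.39 to 0.14, that of Flna from −0.0027 to 0.41 and that of Tpm1 from −0.31 to 0.37. In CRC allografts minus CRC cultures that of Flna ran from −0.20 to 0.020, and it was 0.022 without genotype in the model.

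The number of genes called varied more. Without a filter it was 1658 between the cultures, 0 for medium of origin in allografts, 284 for both comparisons of cultures with cancers and 0 between the cultures of the cancers. With a filter at 5 FPKM it was 0 for medium of origin, 1154 in EpiC allografts minus EpiC cultures, 1000 for the interaction, 0 for each genotype comparison, 59 for CRC and 43 for EpiC cultures against cancers, and 5 between those cultures. A pseudocount of 0.1 gave 0 for medium of origin and 5 between the cultures of the cancers, where rescaling gave 3 (it shifted the median of all genes there by 0.135). Medium of origin gave 0 with 10B and 10C as 1 sample and 17 in Brca1het allografts alone. With the cancer as a replicate block, the paired fit called 58 genes for CRC cultures, 29 for EpiC cultures and 0 between them, and still 0 members. With 1 library left out the count ran from 159 to 2091 between the cultures, 0 to 47 for medium of origin, 997 to 2200 for EpiC allografts, 760 to 2243 for the interaction, 1 to 3 for CYP19A1, 0 to 272 and 0 to 284 for CRC and EpiC cultures against cancers, and 0 to 12 between those cultures. Apart from fewer libraries or a different set of tested genes, the cause was not tested.

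Groups of 2 or 3 libraries and FPKM without counts limit these results. With 2 residual degrees of freedom in the fit of the cultures, a call turns on single libraries. With 2 libraries in each group of the cancer set, the spread within a group is poorly known. A missed call does not show that a member was equal between groups.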

Other observations

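The CArG box was also counted in the promoter windows of the pathway lists, beside 1.63% of all windows. As for the members, windows on 1 chromosome were left out for the lists but not for the share of all windows. It was found in 4 of 13 actins and tropomyosins with a window (Acta1, Actc1, Actg1 and Cnn2) and in 4 of 15 SRF cofactors and targets (Egr2, Fhl1, Fhl2 and Lima1). The lists of ROCK substrates and myosin II genes (Myl6, of 19), focal adhesion genes (Fermt2, of 14) and nucleation genes (Arpc4, of 17) held 1 each. The SRF list holds known targets by choice, so the counts are descriptions. Of these genes, Actg1 stood at 607.8 to 757 FPKM in CRC cultures and 80.5 to 412 FPKM in EpiC cultures without being called.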
